A study of Mus musculus with 4 samples.

Results

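Rods and cones, the dim-light and bright-light photoreceptors of the mouse retina, were compared by the long-read transcript counts pooled for each class. A gene entered the comparison when it had at least 100 counts in the rod column and at least 100 in the cone column, which 3486 of the 16702 genes in the table did. The genes compared held 96.3% of the rod counts and 97.7% of the cone counts. Levels are given as CPM, counts scaled to a column total of 1000000, and the difference of a gene as the log2 ratio of its CPM in rods over that in cones, so that positive values are higher in rods. An isoform's share is its percentage of all counts of its gene in that class.

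The retinas came from male wild-type C57BL6/J mice and were dissociated with papain into single cells, whose cDNA was read full length on a nanopore instrument. Of the 4 libraries, 2 had no enrichment (one is labelled postnatal day 40), 1 had CD73 enrichment (postnatal week 8) and 1 had CD90.2 enrichment (postnatal month 4). For the CD73 library the labels' protocol describes magnetic depletion of CD73-positive cells, while the design text names fluorescence-activated sorting. The columns for the classes name no library, so each class is 1 pooled value with no replicate, no test was made, and the proportion of either class that came from each age or enrichment is not known.

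Both kinds of photoreceptor detect light with an opsin that activates a G protein, transducin, which switches on a phosphodiesterase. The enzyme lowers cyclic GMP and so closes the cyclic-nucleotide-gated channel of the outer segment. Rods and cones build this chain largely from separate genes, and the transcription factors NRL and NR2E3 are known to promote rod genes and to repress cone genes.

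The rod column held 55437340 counts and the cone column 7307134, so rods were read 7.59 times as deeply. Exact 95% intervals below take in counting error alone, not differences between animals or libraries. They treat counts as independent, and are too narrow if several reads come from the same molecule. The rod markers Gnat1, Nrl, Nr2e3, Pde6b and Cnga1 were higher in the rod column, with the values given below. All 6 cone markers were higher in the cone column, at 99760 CPM against 1872 CPM in rods. The summed level of the 6 microglial markers was 854 CPM in rods and 74.2 CPM in cones, with Cx3cr1 at 0 counts in cones. The 4 hemoglobin genes used as blood markers summed to 2783 CPM in rods and 269 CPM in cones. The 7 Müller glia markers summed to 1472 and 797 CPM, of which Apoe alone was 1113 and 350 CPM. Of the 7, 6 were higher in rods, while Clu was at 178 CPM in rods and 384 CPM in cones. The 6 bipolar markers summed to 868 and 715 CPM, of which Pcp2 alone was 832 and 669 CPM. Trpm1 had 2 counts in rods and 0 in cones, too few to compare. The part of these other cells' RNA in the differences below was not tested.

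A 2-fold or larger difference was found for 581 genes, 16.7% of those compared. Of these, 286 (8.20%) were higher in rods and 295 (8.46%) were higher in cones, and 2905 genes lay within 2-fold. Among the genes compared, the largest differences were mostly on the cone side. At 8-fold there were 23 genes higher in rods and 53 higher in cones, and at 16-fold 8 and 31. The 100-count minimum left out more genes on the rod side. There were 3981 genes with 100 counts in rods only and 29 in cones only. Pde6b, 39.6-fold higher in rods, was left out at 96 cone counts. The part of this minimum in the lean to cones was not tested. The median log2 ratio over all genes compared was 0.11, with quartiles at -0.31 and 0.52. A trimmed mean of M-values as the scaling lowered every log2 ratio by 0.18 and gave 212 genes higher in rods and 364 higher in cones. Scaling by the median of ratios lowered it by 0.25 and gave 183 and 402. With rods thinned to the cone total, where a rod count also had to reach 100, 293 genes were higher in rods and 151 in cones. The near-even split therefore holds only for scaling to the column totals at full depth. At the 100-count minimum, the 12 genes whose lower count was exactly 100 had log2 ratios from -1.35 to 1.21, and the 17 genes at 99 had ratios from -1.63 to 1.56. In all of these genes the lower count was that of cones.

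**Figure D1:**
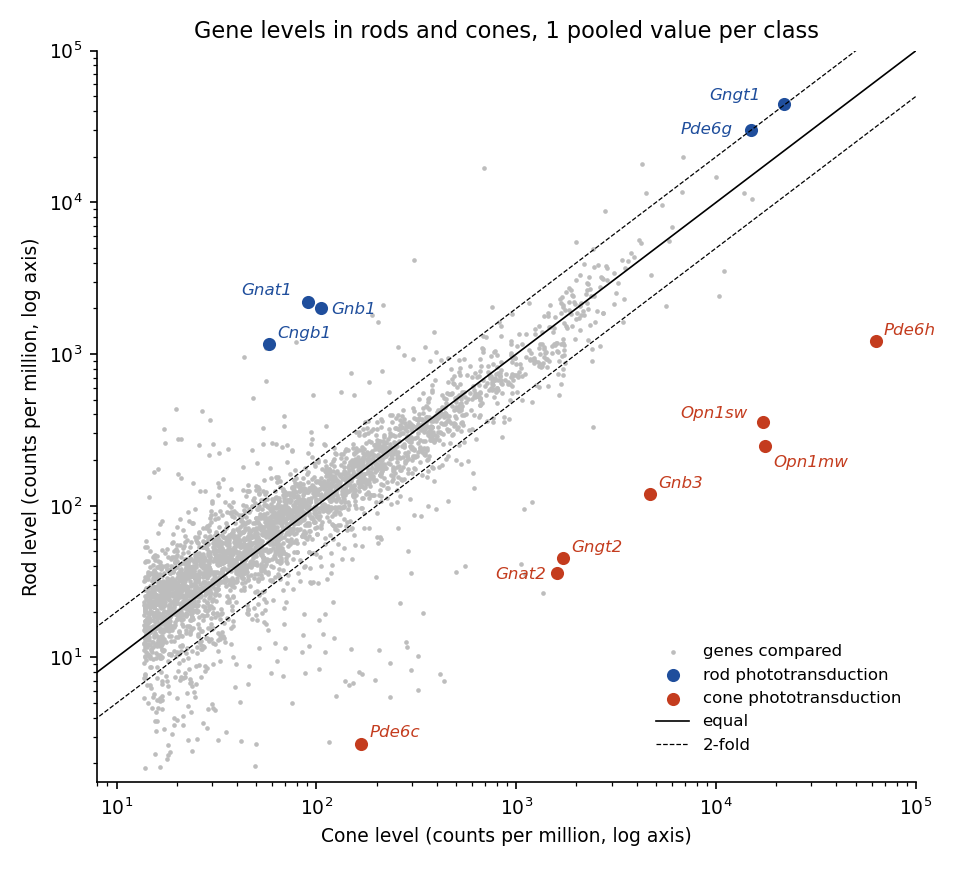
Level of each of the 3486 genes compared in cones (horizontal axis, CPM, log axis) and rods (vertical axis, CPM, log axis), with 1 point per gene and 1 pooled value per class. The points of Gnat1, Gnb1 and Cngb1 stand far above the diagonal, Pde6g and Gngt1 lie on the 2-fold line, and the 7 cone phototransduction genes lie far below it.

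The highest rod to cone ratios were led by genes of the phototransduction chain. Gnat1, the rod transducin alpha subunit, was at 2221 CPM in rods and 90.6 CPM in cones, a log2 ratio of 4.62 (95% interval 4.51 to 4.73).

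Gnb1, the transducin beta subunit of rods, was at 2015 CPM in rods and 105 CPM in cones. Cngb1, the gene of the beta subunit of the rod channel, was at 1168 and 57.6 CPM. The log2 ratios of Gnb1 and Cngb1 were 4.26 and 4.34. The Cngb1 models spanned chr8:95290593-95306570, and which product of the gene these counts stand for was not examined. Both Gnb1 isoforms lacked an Ensembl transcript and spanned chr4:155522636-155557814. The RefSeq start of Gnb1 lies upstream of them, next to chr4:155491360. Which product the Gnb1 counts stand for was not examined either. For Gnat1, Gnb1 and Cngb1 the cone column stood at 4.08% to 5.22% of the rod level. Pde6g, the inhibitory subunit of the rod phosphodiesterase, and Gngt1, the rod transducin gamma subunit, were closer between the classes. Pde6g was at 29998 CPM in rods and 14968 CPM in cones, so that cones stood at 49.9% of the rod level. Gngt1 was at 44574 CPM in rods and 21831 CPM in cones, or 49.0% of the rod level. Their log2 ratios of 1.00 and 1.03 fell below 2-fold under both other scalings. In bipolar cells Pde6g was at 815 CPM and Gngt1 at 6378 CPM, both below the cone level.

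Of the 10 genes on the rod phototransduction list, 4 had under 100 counts in cones and so were not among the genes compared. Pde6b, a catalytic subunit of the rod phosphodiesterase, had 28841 counts in rods and 96 in cones, a log2 ratio of 5.31 (5.02 to 5.61). Pde6a, the other catalytic subunit, had 6990 and 63 counts, a log2 ratio of 3.87. Cnga1, the alpha subunit of the rod channel, had 8301 and 38 counts, a log2 ratio of 4.85. Slc24a1, the rod sodium, calcium and potassium exchanger, had 886 and 2 counts, a log2 ratio of 5.87 with a wide interval of 4.01 to 8.92.

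All 7 cone phototransduction genes compared were higher in cones, with a median log2 ratio of -5.59, against 0.11 for all genes compared. Opn1mw, the middle-wavelength opsin, was at 246 CPM in rods and 17490 CPM in cones, the most extreme ratio of any gene compared at -6.15 (-6.18 to -6.13). Opn1sw, the short-wavelength opsin, was at 358 and 17211 CPM. Pde6h, the inhibitory subunit of the cone phosphodiesterase, was at 1222 CPM in rods and 62874 CPM in cones, and Pde6c, its catalytic partner, at 2.71 and 167 CPM. The cone transducin subunits Gnat2, Gnb3 and Gngt2 had log2 ratios of -5.48, -5.29 and -5.24. The rod column stood between 1.41% (Opn1mw) and 2.24% (Gnat2) of the cone level for the genes of this list among the 10 lowest ratios. Gnb3 was also at 2717 CPM in bipolar cells, against 4654 CPM in cones.

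Of the other 3 genes on the cone list, Cnga3, the alpha subunit of the cone channel, had 101 counts in cones and 0 in rods. Against a floor of 3 counts in the rod column that is at least 255-fold higher in cones. Cngb3, the beta subunit, had 179 counts in cones and 14 in rods. Slc24a2, the cone exchanger, had 27 and 7 counts, a log2 ratio of -4.87 (-6.31 to -3.64).

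Promoter sequence was looked at for the phototransduction genes because the photoreceptor factors CRX and OTX2 are known to bind TAATCC. The 250 bases upstream of the start in RefSeq (build GRCm38.p6) were searched for TAATCC or its reverse complement GGATTA, on genes and a motif chosen with the results known. Of 10 rod list genes 6 had an entry and 3 of these held the motif, while of 10 cone list genes 6 had an entry and 1 held it. The sequences given, 5′ to 3′ on the gene's strand, are the 150 bases before the start of Cngb1 (chr8:95306586-95306735, minus strand), which held the motif at a pair of places, and of Gnat2 (chr3:108092916-108093065, plus strand), the cone gene that held it. Capitals mark the motif.
Cngb1: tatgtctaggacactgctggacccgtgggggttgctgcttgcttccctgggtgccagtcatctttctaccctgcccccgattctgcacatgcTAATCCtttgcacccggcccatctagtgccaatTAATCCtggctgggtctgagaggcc
Gnat2: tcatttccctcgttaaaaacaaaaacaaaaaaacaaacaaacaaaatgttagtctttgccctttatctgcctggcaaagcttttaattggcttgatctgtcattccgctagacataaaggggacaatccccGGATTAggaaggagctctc
Over all genes compared with an entry, 7.38% of 2764 held the motif. The share was 11.5% (25 of 217) for genes higher in rods, 8.80% (19 of 216) for genes higher in cones and 6.86% for the rest, and 7.21% of all 27025 RefSeq genes held it. A pair of other motifs searched in the same windows on both strands did not show this order. TGCTGA, a core of NRL response elements, was held by 16.6% of genes higher in rods, 19.0% of those higher in cones, 13.4% of the rest and 18.0% of all RefSeq genes. AGGTCA, the core of nuclear receptor sites, was held by 12.4%, 19.0%, 12.9% and 15.8% in the same order. A match describes these letters and not a bound site.

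Outside phototransduction, the 10 highest ratios included the rod transcription factors Nrl (954 CPM in rods, 43.2 CPM in cones, log2 ratio 4.46) and Nr2e3 (1094 and 56.0 CPM, 4.29). They also included Reep6, a protein of the endoplasmic reticulum that rods need (322 and 17.2 CPM, 4.22), Sh2d1a, an adaptor best known from lymphocytes (432 and 19.8 CPM, 4.45), and Susd3, a membrane protein (1200 and 79.0 CPM, 3.93). Also among the 10 was Hbb-bt, a beta globin, at 419 and 26.8 CPM with a log2 ratio of 3.97. Hbb-bt was at 1286 CPM in Müller glia and 251 CPM in bipolar cells, so its level was not highest in rods.

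Among the 10 lowest ratios outside phototransduction was Arr3, cone arrestin, at 7.81 CPM in rods and 413 CPM in cones. Agr2, a protein disulfide isomerase, was at 7.03 and 435 CPM, a log2 ratio of -5.95. Kcne2, an accessory subunit of potassium channels, was at 26.7 CPM in rods and 1358 CPM in cones, and was also at 196 CPM in bipolar cells. Gulo, the enzyme of the last step of vitamin C synthesis, was at 5.48 and 233 CPM. A single-exon locus named by its position, on the plus strand at chr19:56724254-56724717 of GRCm38, overlapped an exon of Adrb1, the beta-1 adrenergic receptor. It was at 6.06 CPM in rods and 323 CPM in cones, a log2 ratio of -5.74, and at 99.2 CPM in bipolar cells.

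Of all genes compared, 38.3% (1334 of 3486) were higher in rods or in cones than in any other class. For genes 2-fold higher in rods this was so of rods in 192 of 286 cases (67.1%). The highest class other than rods and cones, whether above or below them, was also taken. It was Müller glia for 42.0% of the 286, against 23.8% of all genes compared. For genes 2-fold higher in cones, 115 of 295 (39.0%) were higher in cones than in any other class, near the share of all genes. The highest class other than rods and cones was bipolar cells for 118 of the 295 (40.0%), against 1047 of all 3486. The microglial genes C1qa and C1qb were among the 23 genes at least 8-fold higher in rods, at 277 and 276 CPM against 20.4 and 20.9 CPM in cones. The hemoglobin genes Hbb-bs, Hbb-bt and Hba-a2 were also among them, although counts can be split between near-identical globin copies. Microglia and blood have no column of their own in the table.

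The genes that shut the light response off and restore the dark state were mostly within 2-fold. Of 8 compared, 2 were 2-fold higher in rods, 1 was higher in cones and 5 lay between. Over all genes compared, 8.20% were 2-fold higher in rods and 8.46% in cones. Guca1b, a calcium sensor of guanylate cyclase, was at 4187 CPM in rods and 308 CPM in cones, a log2 ratio of 3.77. Guca1a, its close relative, was at 10507 and 15151 CPM, a log2 ratio of -0.53, so the pair differed in direction. Pdc, phosducin, which binds the transducin beta and gamma subunits, was at 19831 and 6868 CPM, a log2 ratio of 1.53. Sag, rod arrestin, was at 9645 CPM in rods and 5351 CPM in cones (0.85), unlike Arr3 with its ratio of -5.73. Rcvrn, recoverin, the calcium-dependent inhibitor of opsin kinase, was at 14696 and 10014 CPM, Grk1, that kinase, at 33.6 and 21.6 CPM, and Gnb5, part of the GTPase-accelerating complex, at 428 and 271 CPM. Their log2 ratios were 0.55, 0.64 and 0.66.

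Of 10 genes for the structure of the outer segment and its cilium, 5 were 2-fold higher in rods and 0 in cones. The shares of all genes compared were 8.20% and 8.46%. The list had a median log2 ratio of 0.94. Fscn2, an actin-bundling fascin of photoreceptors, had the largest ratio, with 515 CPM in rods and 48.3 CPM in cones (3.42). Rom1 and Prph2, the tetraspanins of the disc rim, were at 17995 and 8731 CPM in rods and 4282 and 2785 CPM in cones, with log2 ratios of 2.07 and 1.65. Rp1, a microtubule protein of the axoneme, and Prom1, a membrane protein of forming discs, had ratios of 2.13 and 1.38. The other 5, among them the interphotoreceptor matrix proteoglycans Impg1 (0.01) and Impg2 (-0.18) and the ciliary gene Rpgrip1 (0.24), were within 2-fold.

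Of 15 transcription factors in the table, 6 had enough counts. Of the 6, 3 were 2-fold higher in rods and 1 in cones, against 8.20% and 8.46% of all genes compared. Besides Nrl and Nr2e3, Otx2, which specifies photoreceptors, was 2-fold higher in rods, at 43.4 CPM against 14.1 CPM in cones (1.62), and was at 48.3 CPM in bipolar cells. Rxrg, the retinoid receptor of cones, was at 2.76 CPM in rods and 116 CPM in cones (-5.39). Crx and Neurod1, active in both photoreceptors, were within 2-fold at 0.88 and -0.47. Below the minimum, Rorb, a nuclear receptor that acts with Nrl in rods, had 5105 counts in rods and 53 in cones, a log2 ratio of 3.67. Samd11 had 9424 and 85 counts (3.87), Esrrb 211 and 0 counts, which is at least 9.27-fold higher in rods, and Thrb, a thyroid hormone receptor gene that acts in cone opsin expression, 219 and 83 counts (-1.52).

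Of 6 genes that traffic lipid-bearing phototransduction proteins, 1 was 2-fold higher in rods, 1 was higher in cones and 4 lay between. For all genes compared the shares were 8.20% and 8.46%. Fntb, a farnesyltransferase subunit, was at 35.5 CPM in rods and 15.2 CPM in cones (1.22), a ratio that fell below 2-fold with the median of ratios. Pde6d, which carries prenylated proteins, was at 796 and 1711 CPM (-1.10). Unc119 and Aipl1, the carrier of acylated transducin and the chaperone of phosphodiesterase, were within 2-fold at 0.80 and -0.59. In the visual cycle, which renews the chromophore, 2 of 6 genes were 2-fold higher in rods, against 8.20% of all genes compared. Rdh12, a retinol dehydrogenase of inner segments, was at 650 and 184 CPM (1.82). Rlbp1, the retinal-binding protein of Müller glia, was at 46.1 CPM in rods, 20.9 CPM in cones and 1736 CPM in Müller glia (1.14), and fell below 2-fold under both other scalings.

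Of 23 genes of glucose and energy metabolism, 16 lay within 2-fold. Another 4 were 2-fold higher in rods and 3 in cones, against 8.20% and 8.46% of all genes compared. The 4 were Hk1, hexokinase 1, at 87.3 CPM in rods and 33.7 CPM in cones (1.37), Pfkp, the platelet phosphofructokinase (1.20), Slc16a1, a lactate transporter (1.12), and Eno1, enolase 1 (1.03). Slc16a1 and Eno1 fell below 2-fold under both other scalings and Pfkp with the median of ratios. On the cone side, Pfkm, the muscle phosphofructokinase, was at 3.12 CPM in rods and 18.9 CPM in cones (-2.60), with 173 and 138 counts. Ckb, brain creatine kinase, was at 2423 and 10342 CPM (-2.09), and Ckmt1, its mitochondrial counterpart, at 286 and 845 CPM (-1.56). Under both scalings Bsg, basigin (-0.89), and Got1, a transaminase (-0.91), joined this side. Both creatine kinase genes were thus higher in cones, and Ckb was at 12767 CPM in bipolar cells.

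At the ribbon synapse, 1 of 12 genes was 2-fold higher in rods and 2 in cones, against 8.20% and 8.46% of all genes compared. The complexins, which act on vesicle fusion, divided by gene. Cplx4 was at 1027 CPM in rods and 396 CPM in cones (1.38), while Cplx3 was at 2.83 and 42.2 CPM (-3.90). Syp, the vesicle protein synaptophysin, was at 95.4 CPM in rods and 397 CPM in cones (-2.06). Cabp4 (0.55), Stx3 (-0.10) and Slc17a7 (-0.17), a calcium channel modulator, a ribbon syntaxin and the vesicular glutamate transporter, were within 2-fold. With the median of ratios, Rims2 (-0.87) and Dmd (-0.77) also passed 2-fold towards cones. Among channels and pumps, 1 of 5 was 2-fold higher on each side, against the same shares of all genes compared. Clcn3, a chloride and proton exchanger, was at 22.6 CPM in rods and 51.2 CPM in cones (-1.18). Kcnj14, an inward rectifier, was below the minimum with 14470 counts in rods and 84 in cones (4.50).

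Of 9 splicing regulators, 1 was 2-fold higher in rods and 0 in cones, against 8.20% and 8.46% of all genes compared. The regulator higher in rods was Celf1, at 57.6 CPM in rods and 27.5 CPM in cones. Its log2 ratio of 1.07 fell below 2-fold under both other scalings. Msi1 and Msi2, the Musashi proteins that promote photoreceptor exons, were at 28.3 and 22.7 CPM in rods and 16.4 and 18.5 CPM in cones. Srrm3, which is known to promote photoreceptor microexons, had 547 counts in rods and 24 in cones, with rods read 7.59 times as deeply.

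**Figure D2:**
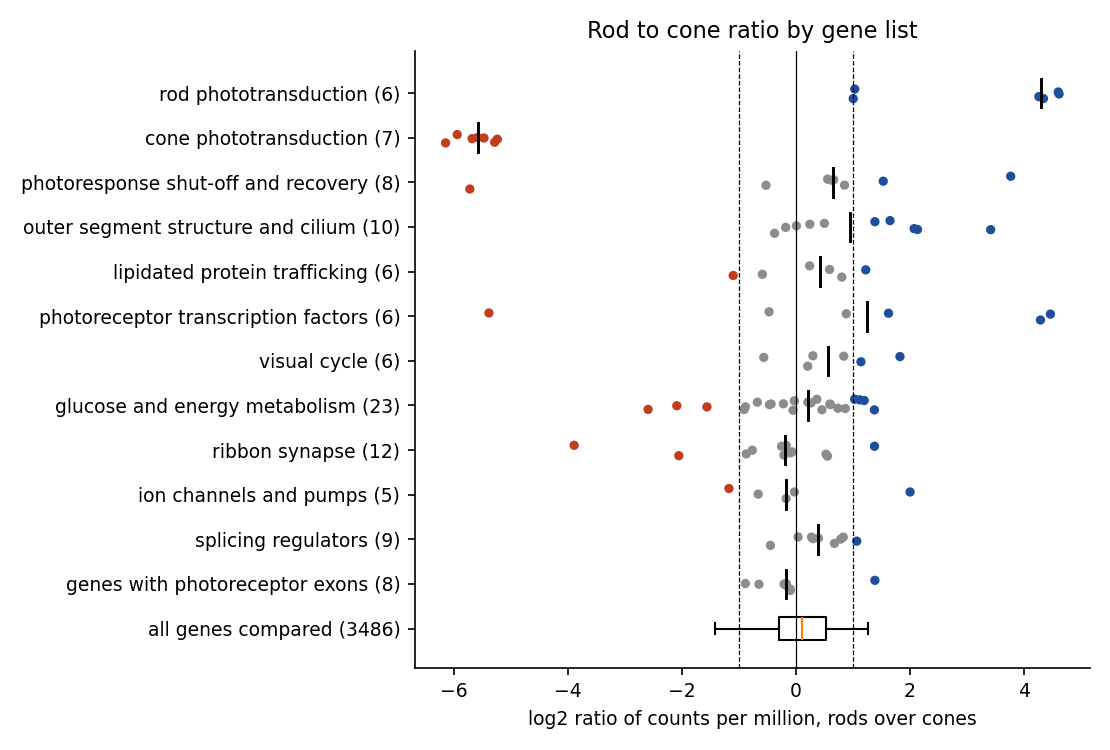
Log2 ratio of CPM, rods over cones, of each gene compared (points), by gene list with the number compared in brackets. Black ticks are list medians, dashed lines mark 2-fold, and the box at the bottom gives the quartiles and median of all 3486 genes with whiskers from the 5th to the 95th percentile. The rod and cone phototransduction lists lie at opposite ends, with medians of 4.30 and -5.59, and most other lists centre near 0.

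Isoform use was compared in the 2283 genes that had 2 or more isoforms. In most of them rods and cones used isoforms in like proportions, with a median of 4.56 percentage points for a gene's largest difference. The share of some isoform differed by at least 10 points in 547 genes (24.0%), by at least 25 points in 75 genes (3.29%) and by at least 50 points in 11 genes. The most abundant isoform differed in 151 genes (6.61%), of which 43 also had a 25-point difference. Among the 879 genes with 500 or more counts in each class, 18 (2.05%) reached 25 points. Isoforms without an Ensembl transcript held 9.99% of rod and 9.25% of cone counts.

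Of the 75 genes, 28 (37.3%) were also 2-fold higher in cones in level, against 7.88% of all 2283, and 9 were 2-fold higher in rods, against 8.32% of all 2283. In the pair of isoforms that differed most in each of the 75 genes, the first exon differed in 40, an internal exon in 22, the last exon in 18, intron retention in 2, a 5′ splice site in 7 and a 3′ splice site in 2, and a pair could count in several. The rod-favoured isoform was the longer one in 46 and the shorter one in 29. In 13 pairs the introns of one isoform were a contiguous stretch of those of the other, 7 with the rod isoform as the shorter chain and 6 with the cone isoform. Reads that stop early and a true internal start cannot be told apart in such pairs.

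Oaz1, the antizyme that limits polyamine synthesis, had the largest difference among genes with 500 or more counts. An unannotated 4-exon isoform at chr10:80826686-80829290 made up 76.9% of 7239 rod counts (95% interval 75.9 to 77.9) and 15.1% of 4478 cone counts (14.1 to 16.2). The annotated 5-exon ENSMUST00000179620.7 made up the rest, 23.1% in rods and 84.9% in cones. Bipolar cells were close to cones, with the unannotated isoform at 14.7%, and amacrine cells were on the side of rods at 97.3%.

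Arhgdib, an inhibitor of small GTPases, used ENSMUST00000032344.11 for 74.8% of rod and 18.3% of cone counts, and ENSMUST00000111892.7, which differs in the first exon, for 23.6% and 78.4%. Faim, an inhibitor of Fas-driven cell death, had 90347 counts in rods and 1494 in cones. Its isoform ENSMUST00000185472.1 made up 83.0% in rods, 32.1% in cones and 4.58% in amacrine cells. ENSMUST00000112911.8, with another first exon and 1 exon more, made up 8.84% in rods, 38.6% in cones and 94.3% in amacrine cells, so cones lay between the other classes. Dpysl3, a collapsin response mediator, gave an unannotated 9-exon isoform that starts inside the gene 2.59% of rod and 55.6% of cone counts.

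Sumo3, a ubiquitin-like modifier, differed in the share of ENSMUST00000137841.8, annotated as a target of nonsense-mediated decay. The share was 48.9% in rods, 18.8% in cones, 4.55% in bipolar cells and 0.723% in amacrine cells.

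Among the other genes named for isoform shares, the first exon differed in Apbb1, Rnh1, Anp32a and Pmvk, where Pmvk, phosphomevalonate kinase, used its leading rod isoform for 84.6% of rod and 41.1% of cone counts. Anp32a, a nuclear acidic phosphoprotein, used ENSMUST00000085519.12 for 55.0% in rods and 85.4% in cones. Rnh1, the ribonuclease inhibitor, used ENSMUST00000167493.8 for 85.3% and 53.3%. Apbb1, an adaptor of the amyloid precursor protein, used ENSMUST00000189378.6 for 59.9% and 27.2%. Tspan17, a tetraspanin, differed by a retained intron, with ENSMUST00000026993.13 at 74.9% and 45.9%.

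Among the genes with the largest differences at lower counts, Spp1, osteopontin, was at 97.8% of 578 rod counts and 10.2% of 118 cone counts for ENSMUST00000031243.14. The Lhx4 isoform ENSMUST00000027740.13, of a LIM homeobox factor, was at 37.7% of 159 rod counts and 95.8% of 167 cone counts. An unannotated isoform of Dcxr, L-xylulose reductase, was at 2.37% and 76.6%. Vgll4, a cofactor of TEAD factors, had ENSMUST00000147639.7 at 6.01% and 56.8%. For Spp1 and Dcxr the bipolar value was near that of cones, at 15.1% and 73.6%, and for Lhx4 it was near that of rods, at 36.9%.

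**Figure D3:**
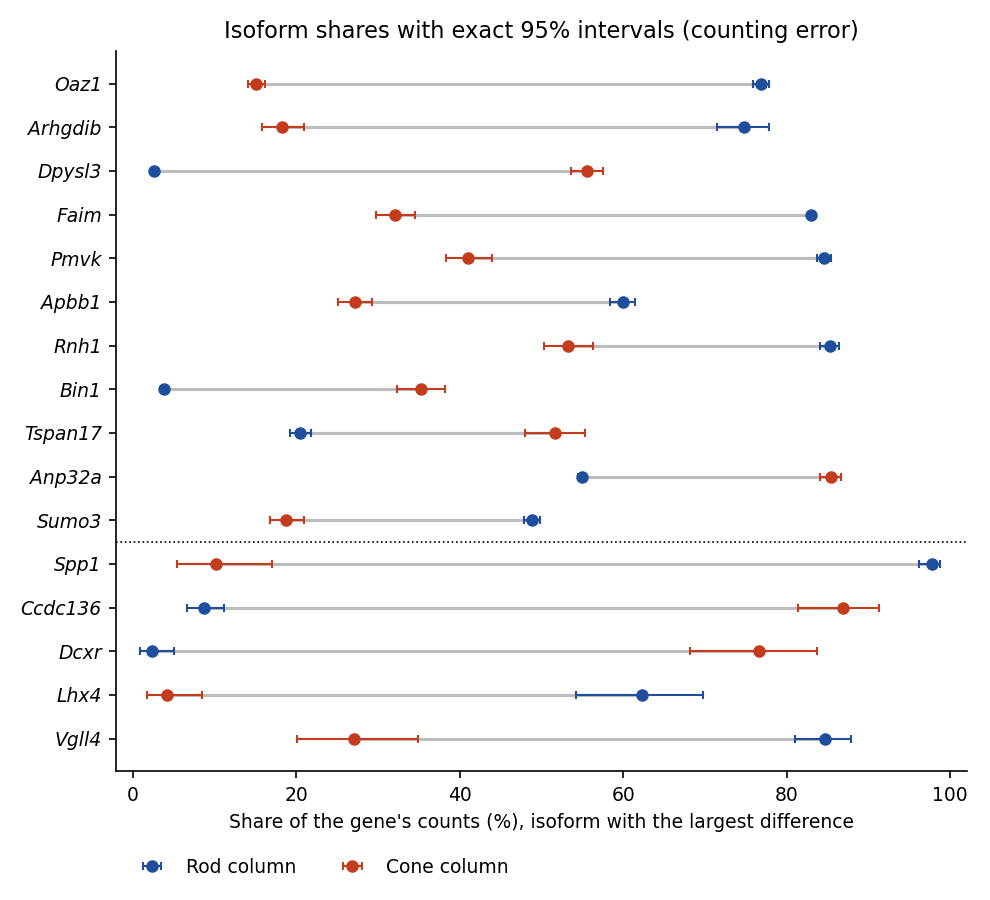
Share of a gene's counts (horizontal axis, %) taken by its isoform with the largest difference, in rods (blue) and cones (red), for 11 genes with 500 or more counts in each class (above the dotted line) and 5 with fewer (below). Bars are exact 95% intervals for counting error. The genes were chosen for the size of this difference, so it adds no support that the intervals of rods and cones are apart in each.

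No gene of the 12 functional lists reached 25 points, where 75 of all 2283 genes (3.29%) did. Each list held 3 to 12 genes with 2 or more isoforms, too few to tell its share from that of all genes. The list gene nearest to 25 points was Hnrnpa2b1, an RNA-binding protein, at 23.7 points. Its isoform ENSMUST00000090002.9 was at 58.2% in rods and 34.5% in cones. Sag rested on many more counts. Its unannotated 16-exon isoform made up 56.7% of 534715 rod counts and 37.6% of 39100 cone counts, and the annotated 16-exon ENSMUST00000077772.11 made up 29.2% and 45.8%, so the leading isoform differed. In the rod phototransduction list, the largest difference among the 4 genes with 2 or more isoforms was 3.17 points, in Gnb1. In the cone list it was 12.9 points, in Gngt2.

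Cassette exons were compared next, as internal exons that some isoforms include and others skip between the same flanking splice sites. With 100 or more such counts in each class there were 1572 exons in 1172 genes. Inclusion differed by at least 25 points in 17 exons (1.08%), 10 higher in rods and 7 higher in cones, and by at least 10 points in 216 exons (13.7%), 82 and 134. The median difference was 3.12 points. With 500 or more counts, 2 of 478 exons reached 25 points. Differences of 25 points from bipolar and amacrine cells were more frequent. On the exons also measured in bipolar cells, 75 of 1527 (4.91%) differed by that much between rods and bipolar cells and 52 (3.41%) between cones and bipolar cells, against 15 (0.982%) between rods and cones. On the exons also measured in amacrine cells, 167 of 1497 (11.2%) differed by 25 points between rods and amacrine cells and 169 (11.3%) between cones and amacrine cells, against 15 (1.00%) between rods and cones.

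The largest difference was in a 107-nt exon of Ccdc136, a coiled-coil protein, at chr6:29421991-29422097. It was included in 90.9% of 629 rod counts (88.4 to 93.1) and 13.1% of 198 cone counts (8.76 to 18.6), and in 98.4% in bipolar and 97.7% in amacrine cells, so cones stood apart from the other 3. The 91-nt exon of Clk4, a kinase of splicing factors, went the other way, with 15.6% in rods, 60.2% in cones, 78.9% in bipolar cells and 48.3% in amacrine cells. A 129-nt exon of Bin1, a membrane-curving protein, was included in 4.44% of 7794 rod counts, 37.3% of 989 cone counts and 97.6% in amacrine cells. Inclusion was also lower in rods for Aifm1, a mitochondrial flavoprotein (54.8% against 89.4%), Ccdc58 (54.4% against 88.7%) and Tdp2, a DNA repair phosphodiesterase (59.8% against 92.4%). It was higher in rods for Wdr54 (93.9% against 61.6%), Rer1, a sorting receptor of the Golgi (59.3% against 27.6%), and the exon of the Sumo3 isoform above.

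Of 60 exons of 27 nt or less, 11 (18.3%) differed by 10 points, against 13.7% of all 1572 exons. At 25 points it was 1 (1.67%), against 1.08%. On deeper counts, the 12-nt exon of Vps29, a subunit of the retromer sorting complex, was included in 59.7% of 18452 rod counts, 81.1% of 3741 cone counts, 89.0% in bipolar cells and 7.35% in amacrine cells. The 9-nt exon of Psap, the precursor of the lysosomal saposins, was included in 76.9% of rod and 96.7% of cone counts. The sequences of 3 exons that differed are given here from GENCODE M21 transcripts on GRCm38, 5′ to 3′ on the gene's strand, with the exon in capitals and 12 bases of each neighbouring coding exon in lower case. They were chosen after their values were seen, as the coding exons whose inclusion set rods apart from cones. They lie at chr5:122356794-122356805 (Vps29, plus), chr10:60297537-60297545 (Psap, plus) and chr11:51273078-51273168 (Clk4, plus).
Vps29: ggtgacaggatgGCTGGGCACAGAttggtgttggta
Psap: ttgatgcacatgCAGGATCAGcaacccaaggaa
Clk4: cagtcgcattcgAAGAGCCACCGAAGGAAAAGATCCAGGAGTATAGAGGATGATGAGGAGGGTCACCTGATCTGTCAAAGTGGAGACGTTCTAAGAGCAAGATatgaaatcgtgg
The exons of Vps29 and Psap keep the reading frame and the 91-nt exon of Clk4 does not.

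Of the 19 genes listed for photoreceptor exons, 5 had a cassette exon with 100 counts in each class, and their 7 such exons each differed by less than 4 points between rods and cones, where the median of all 1572 exons was 3.12 points. By isoform share, 2 of the 7 genes of this list with 2 or more isoforms passed 10 points, against 24.0% of all genes, with the largest difference in Slc17a7 at 19.3 points. Of the 7 exons, 5 are described here, chosen after their values were seen. The 30-nt exon of Ttc8, a subunit of the BBSome complex of cilia, was included in 98.8% of 6966 rod counts, 97.4% of 988 cone counts, 39.1% in bipolar cells and 8.83% in amacrine cells. The 21-nt exon of Atp1b2, the beta 2 subunit of the sodium pump, was at 98.6%, 94.8%, 33.8% and 13.6% in the same order. The 17-nt exon of Impdh1, which makes guanine nucleotides, was at 95.4%, 92.0%, 76.3% and 19.9%. The 13-nt exon of Arl6, a GTPase that recruits the BBSome, was at 98.5% in rods, 98.9% in cones, 98.2% in bipolar cells and 66.6% in amacrine cells. The 348-nt exon of Bsg, basigin, was at 85.8% in rods and 87.2% in cones, and at 2.39% in Müller glia. The exons of the 7 left out of these 5 were both in Impdh1, and there rods and cones were below amacrine cells. The 99-nt exon was at 94.9% in rods, 96.0% in cones and 99.2% in amacrine cells. Its longer form was at 93.9%, 94.9% and 99.1% in the same order. In the 5 exons described first, both rods and cones were above amacrine cells. The sequences of 4 are shown in the same way as above, at chr12:98937120-98937149 (Ttc8, plus), chr16:59618666-59618678 (Arl6, minus), chr11:69601924-69601944 (Atp1b2, minus) and chr6:29201888-29201904 (Impdh1, minus).
Ttc8: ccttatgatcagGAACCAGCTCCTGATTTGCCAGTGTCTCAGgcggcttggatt
Arl6: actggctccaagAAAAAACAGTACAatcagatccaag
Atp1b2: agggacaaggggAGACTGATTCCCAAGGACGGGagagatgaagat
Impdh1: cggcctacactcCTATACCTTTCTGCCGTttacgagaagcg
The cone opsin gene Opn1mw had cassette exons measured in several classes. A 166-nt exon of it was included in 74.0% of 13639 rod counts and 74.5% of 127798 cone counts, and in 74.1% in bipolar and 73.2% in amacrine cells, although the level of Opn1mw itself differed 71.1-fold between cones and rods. Whether the Opn1mw counts of the other columns came from cones was not tested.

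**Figure D4:**
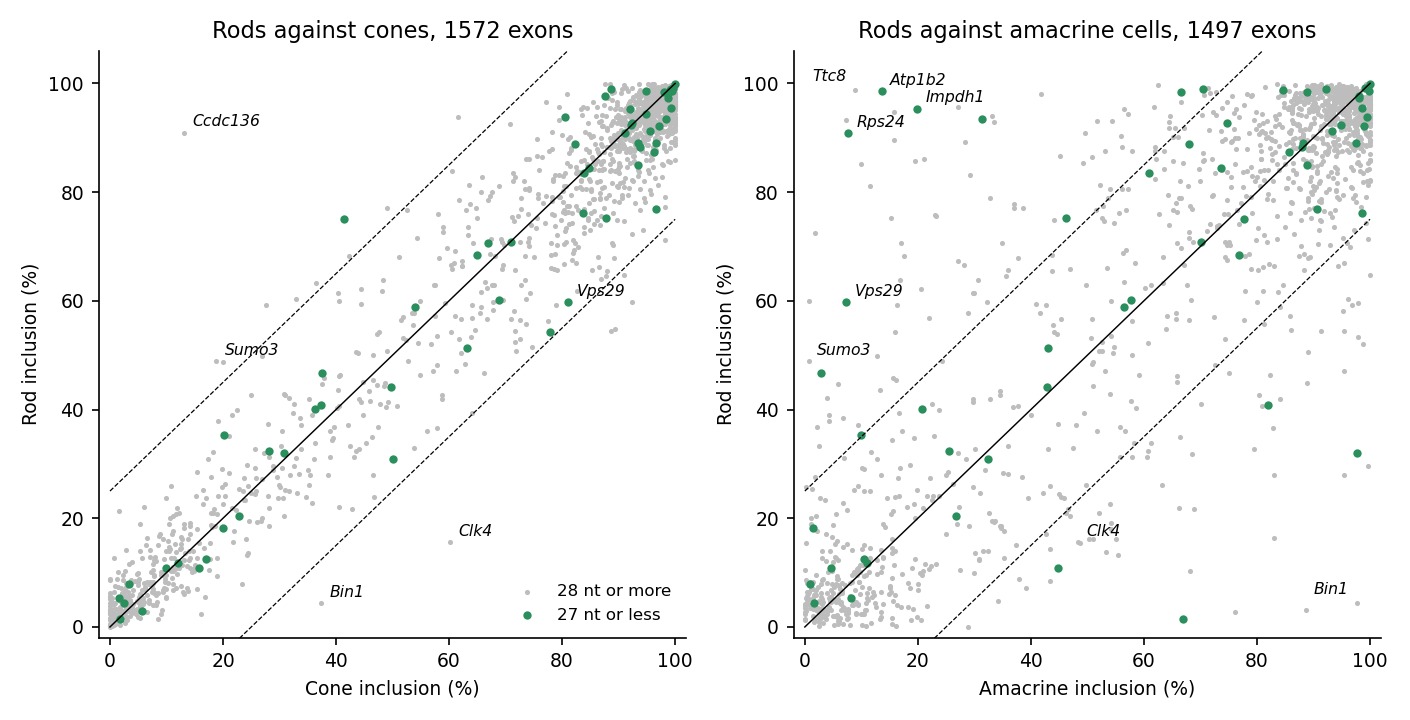
Inclusion of cassette exons (%) in rods (vertical axis) against cones (left, 1572 exons) and against amacrine cells (right, 1497 exons), with exons of 27 nt or less in green and dashed lines at a difference of 25 points. Rods and cones lie along the diagonal apart from 17 exons, while 167 exons lie outside the lines against amacrine cells, among them those of Ttc8, Atp1b2 and Impdh1.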

How the data were processed

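Long-read single-cell cDNA of 4 libraries was measured, and the authors deposited whole-number counts per isoform in 6 cell-class columns, with transcript models that name FLAIR as their source, per the file contents. The genome build is mm10 per the submitters' processing notes, and GENCODE M21 holds 94.4% of the models' 122601 splice junctions at identical positions, so coordinates are given on GRCm38. The aligner, the cell calling, the treatment of doublets, and whether reads were collapsed to molecules are not given in the sources used here. All columns were used (0 left unused), and only the rod and cone columns entered the comparison.

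Counts were summed per gene, scaled to the column total as CPM, and compared by size with exact 95% intervals. A gene counted as different at 2-fold, an isoform share or a cassette exon's inclusion at 25 points, with 100 counts in each class. Models exist for isoforms with a rod count, and isoforms without one held 0.0542% of cone counts. Depth limits genes low in cones: 3981 genes reached 100 counts in rods only and 29 in cones only. The limit that a count of 0 allows is 3 counts, or 0.411 CPM in cones and 0.0541 CPM in rods.

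Genes are named when they belong to a list, have 1 of the 10 highest or lowest ratios, have 1 of the 12 largest share differences with 500 counts in each class or 1 of the 6 largest below that, or hold 1 of the 10 largest exon differences, and any other is said to be chosen after its values were seen or is given as a marker. Marker genes of blood and microglia, small exons and other exons that were named for depth or likeness were chosen after their values were seen. Some items that these rules take in are not reported here. The members and lists were chosen with earlier results of these data known. Alternatives were other scalings (edgeR 4.0.16 and DESeq2 1.42.0, for scaling factors only), minimums, thresholds, annotated isoforms only, isoforms with the same introns summed, spliced isoforms only, and rods thinned to the cone total in 10 draws. The rules were run on simulated data. Of the changed genes among those run, 161 of 161 in ratio (3827 genes run) and 186 of 187 in share (2570 genes run) were recovered. Changed genes that were not run are outside these counts. In ratio, every changed gene was given the same size of change, larger than the 2-fold cut-off. In share, the most abundant isoform traded shares with the next, in genes where it led clearly. Recovery in share was not broken down by size. High recovery was thus largely built in, and these counts do not show how the rules perform near their cut-offs. Python 3.11.15, pandas 2.3.3, scipy 1.17.1 and R 4.3.3 were used.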

Additional observations from a re-analysis of the deposited data

How the results depend on the processing

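No value changed direction in 134 alternatives for single named genes. These genes were chosen for the largest ratios or share differences, so a reversal was hardly possible and its absence is no support. In 36 of the 134 the value moved beyond the range set by its counting interval, and in 98 it did not. Of the counts of genes and exons, 29 of 53 alternatives stayed within 1.5 times. Genes 2-fold higher in rods numbered 183 with the median of ratios, 2884 of 11536 with a minimum of 1 count in each class, 51 of 1573 with 500 counts and 54 at 4-fold. Genes higher in cones numbered 1981, 129 and 103 under the last 3 of these settings, and 151 with rods thinned to the cone total, where a rod count also had to reach 100. Share differences of 25 points were found in 468 genes with a minimum of 20 counts and 18 with 500, and in 547 genes at 10 points and 11 at 50. The leading isoform differed in 454 and 37 genes with those minimums. Cassette exons past the difference numbered 2 with 500 counts and 216 at 10 points. In the lists, the genes past 2-fold numbered 1 in the visual cycle, 0 among splicing regulators and 2 among genes with photoreceptor exons under both other scalings, and with the median of ratios 1 in lipidated protein trafficking and 5 at the ribbon synapse. The cause was not tested. No paired analysis was possible because a class is 1 pooled column and no result comes from a test. Leaving out each library was not run, since the columns do not separate them.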

Other observations

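Some genes outside the named rules, chosen after their values were seen, also separated the classes. Otop3, a proton channel, fell below the minimum with 93 counts in rods and 949 in cones, a log2 ratio of -6.27 that exceeds that of any gene compared. Fabp7, a fatty acid binding protein, was at 10.3 CPM in rods and 323 CPM in cones (-4.97), and Pygm, muscle glycogen phosphorylase, was at 5.61 and 125 CPM (-4.47). Elovl4, which makes very long chain fatty acids, was at 756 CPM in rods and 149 CPM in cones (2.34). Eif3b, a translation initiation factor, was at 41.3 and 1059 CPM (-4.68). Its 19-exon isoform ENSMUST00000100507.7, of 2945 nt, made up 28.8% of rod and 0.375% of cone counts. The isoform favoured in cones was an unannotated 4-exon model of 889 nt. The gene's ratio therefore does not stand for the 19-exon isoform. Ppef2, a phosphatase of photoreceptors, included a 167-nt exon at 71.1% in rods and 98.1% in cones.

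Of the 53 loci compared that are named by position, 13 were 2-fold higher in rods and 4 in cones, against 8.20% and 8.46% of all genes compared. The 2-exon locus at chr3:58616300-58621213, which overlaps Erich6, was at 7.11 CPM in rods and 196 CPM in cones (-4.78). The 2-exon locus at chr15:101115755-101120040, which overlaps Ankrd33, was at 53.6 and 14.2 CPM (1.91).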
